A study of Homo sapiens with 5 samples.

Results

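The genes of 8 transcription factors that set liver identity were examined in peak lists of 5 CUT&Tag libraries. The cells named by the submitters were HepG2, an established line from a human liver tumour that keeps many hepatocyte traits. The genes were FOXA1, FOXA2, FOXA3, ONECUT1, CEBPA, CEBPB, GATA4 and GATA6, taken by symbol as 8 of the 20037 protein-coding genes of RefSeq on the standard chromosomes of GRCh38, the assembly also named hg38. Genes of the HNF1 factors were not analysed here. In CUT&Tag, an antibody brings a transposase to its target and the enzyme cuts out and tags the DNA nearby. A peak marks where the peak caller found an excess of such fragments over its local background. A peak was counted at a gene end when it shared at least 1 bp with a window of 1 kb on each side of either end of the gene, inside the gene when it overlapped the gene, and nearby when it lay within 20 kb.

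The study asked whether ENL, a subunit of transcription elongation complexes that reads acylated lysines through its YEATS domain, lies on chromatin carrying β-hydroxybutyrylation of histone H3 lysine 9 (H3K9bhb). The 5 libraries were wild type Flag-ENL, Flag-ENL with the Y78A substitution in the acyl-lysine pocket, H3K9bhb, H3K9ac (acetylation) and H3K9cr (crotonylation), with 1 library per group. Per the design text, the Flag and H3K9bhb antibodies were used on HepG2 cells with stable expression of the tagged protein. The sources used here do not give which ENL form the H3K9bhb cells carried, or whether the cells behind the H3K9ac and H3K9cr libraries carried tagged ENL. Nor do they give the promoter of the transgene, clone or pool, whether the cells' own ENL remained, or any treatment. Since each group is a single library, differences between lists have no replicate check, no test was made, and all intervals are 95% intervals for counting error.

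FOXA proteins are pioneer factors: they bind their sites in closed chromatin and open it for others, and GATA4 and GATA6 do so beside them when foregut endoderm becomes liver. ONECUT1, also called HNF6, is a cut-homeodomain factor of the developing liver and bile ducts. CEBPA and CEBPB are basic leucine zipper factors, the first tied to the metabolic genes of the quiescent hepatocyte and the second to the acute-phase response and regeneration.

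The lists held 11394 wild type ENL peaks, 5422 Y78A peaks, 9176 H3K9bhb peaks, 31493 H3K9ac peaks and 3852 H3K9cr peaks on the standard chromosomes, and read totals are unknown. The smallest −log10 q lay between 1.31 and 2.05, so the lists were not cut alike, and a longer list reaches more genes. Peak names inside the H3K9ac list begin with ENL1, and the group was taken from the label. Of 11 hepatocyte marker genes, 7 had H3K9ac at a gene end, near the 56.4% of all protein-coding genes, and 4 had wild type ENL, against 28.6%. ALB, AFP, TTR and FGB had neither at a gene end, though all of these but TTR had H3K9ac within 20 kb. Of 8 markers of other cell types, PECAM1 alone had a gene-end peak of wild type ENL or H3K9ac. The gene-end H3K9ac share of the hepatocyte markers thus gives little check of the cell type. Within 20 kb, H3K9ac was found at 10 of the 11 hepatocyte markers and 3 of the 8 others, against 75.6% of all genes. Wild type ENL was found there at 7 and 3, against 49.7%.

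Wild type ENL was at a gene end of 6 of the 8 factor genes, against 28.6% of all protein-coding genes. FOXA1, FOXA2, FOXA3, CEBPA, CEBPB and GATA6 had such a peak, and ONECUT1 and GATA4 did not. Y78A was at 3 of the 8 (FOXA3, CEBPB and GATA6), against 14.6% of all genes. H3K9bhb was at 2 (FOXA3 and CEBPB), against 23.8%, which is close to the background. H3K9ac was at the same 6 genes as wild type ENL, against 56.4%, and H3K9cr was at 0, against 4.49%. At a window of 500 bp, wild type ENL was at 4 members (FOXA2, CEBPA, CEBPB and GATA6). H3K9ac was then at 4 others or shared ones (FOXA1, FOXA3, CEBPB and GATA6), so the match of the 2 lists depends on the window. With every list limited to its 3852 peaks of largest −log10 p, wild type ENL and H3K9ac were at a gene end of 0 members, Y78A at FOXA3 only and H3K9bhb at CEBPB only. The members' peaks were thus called in the lists as deposited but were seldom among the strongest of their list.

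**Figure D1:**
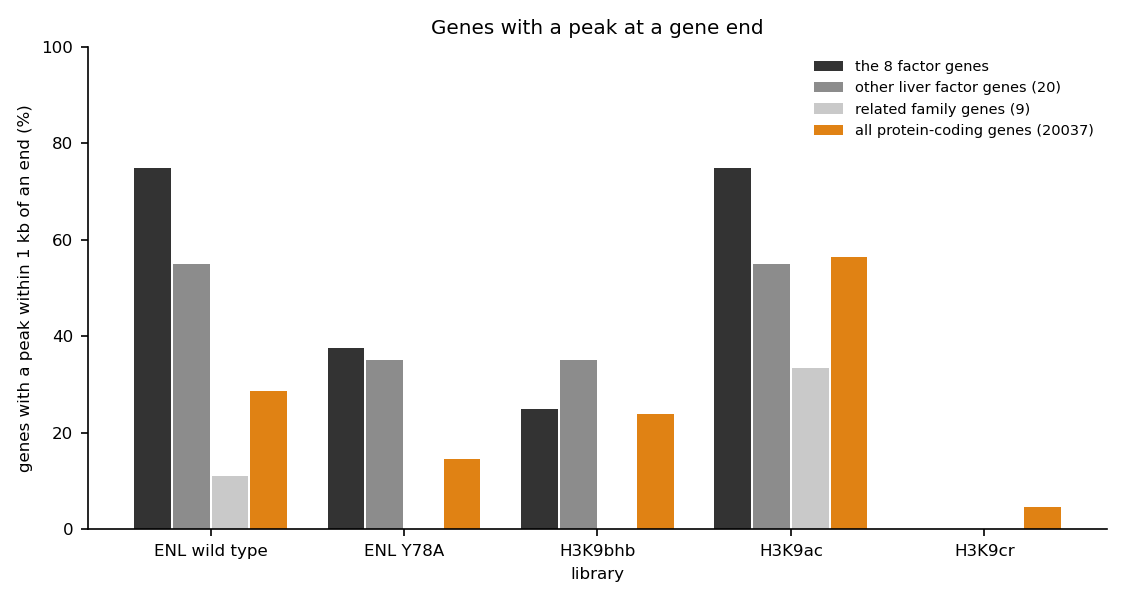
Percent of genes with a peak within 1 kb of a gene end (vertical axis), by library (horizontal axis), for the 8 factor genes, 20 other liver factor genes, 9 related family genes and all 20037 protein-coding genes. Wild type ENL was at 6 of the 8 factor genes against 28.6% of all genes, and H3K9bhb at 2 against 23.8%.

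Of the 6 members with H3K9ac at a gene end, 6 also carried wild type ENL at a gene end, against 49.7% of all 11305 genes with H3K9ac at one. In CEBPA the 2 peaks lay at opposite ends of the gene, and at a window of 500 bp only CEBPB and GATA6 kept both calls. Y78A was at 3 of the 6 members with H3K9ac (25.6% of such genes) and H3K9bhb at 2 (41.6%). Read the other way, H3K9ac was at 6 of the 6 members with wild type ENL, and at 5621 of all 5734 such genes. In that direction the match is near the background. Y78A was at 3 of the 6 members with wild type ENL, against 49.8% of all such genes, and H3K9bhb was at 2 of them, against 71.3%. FOXA1, FOXA2 and CEBPA shared one pattern, wild type ENL with H3K9ac and no Y78A, H3K9bhb or H3K9cr, which 6.25% of all genes had. FOXA3 and CEBPB had a gene-end peak in every list but H3K9cr, a pattern of 9.22% of genes. GATA6 had wild type ENL, Y78A and H3K9ac without H3K9bhb, a pattern of 1.48% of genes. Wild type ENL with Y78A and without H3K9bhb was found at 5.49% of the genes with wild type ENL.

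Inside the gene itself, wild type ENL was present in 4 of 8 members (31.3% of all genes), Y78A in 0 (15.2%), H3K9bhb in 1 (26.5%), H3K9ac in 7 (62.7%) and H3K9cr in 1 (7.67%). In the gene or within 20 kb of it, wild type ENL was found at 6 members (49.7% of all genes), Y78A at 3 (28.8%), H3K9bhb at 3 (44.5%), H3K9ac at 8 (75.6%) and H3K9cr at 2 (15.1%). These windows held 9 wild type ENL peaks, 5 Y78A, 5 H3K9bhb, 31 H3K9ac and 2 H3K9cr peaks, 52 in all. The median member had 1 wild type ENL peak and 3.5 H3K9ac peaks, against 0 and 2 over all genes, and the median was 0 in the other lists for members and all genes alike.

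Per 100 kb of window there were 1.82 wild type ENL peaks around the members against 0.811 around all genes, and 6.25 H3K9ac peaks against 2.27. For Y78A the values were 1.01 and 0.385, for H3K9bhb 1.01 and 0.620, and for H3K9cr 0.403 and 0.176. Each density is the summed peaks over the summed window length, so it depends on gene length. Gene length was not matched between the members and all genes, and its part in these differences was not tested. CEBPB held 3 of the 5 Y78A peaks and 3 of the 5 H3K9bhb peaks. Without CEBPB, a count added after the values were seen, the remaining 7 members had 1.32 wild type ENL peaks per 100 kb, 5.73 H3K9ac peaks, 0.441 Y78A peaks, 0.441 H3K9bhb peaks and 0.220 H3K9cr peaks. The H3K9bhb density of the members was then below that of all genes.

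**Figure D2:**
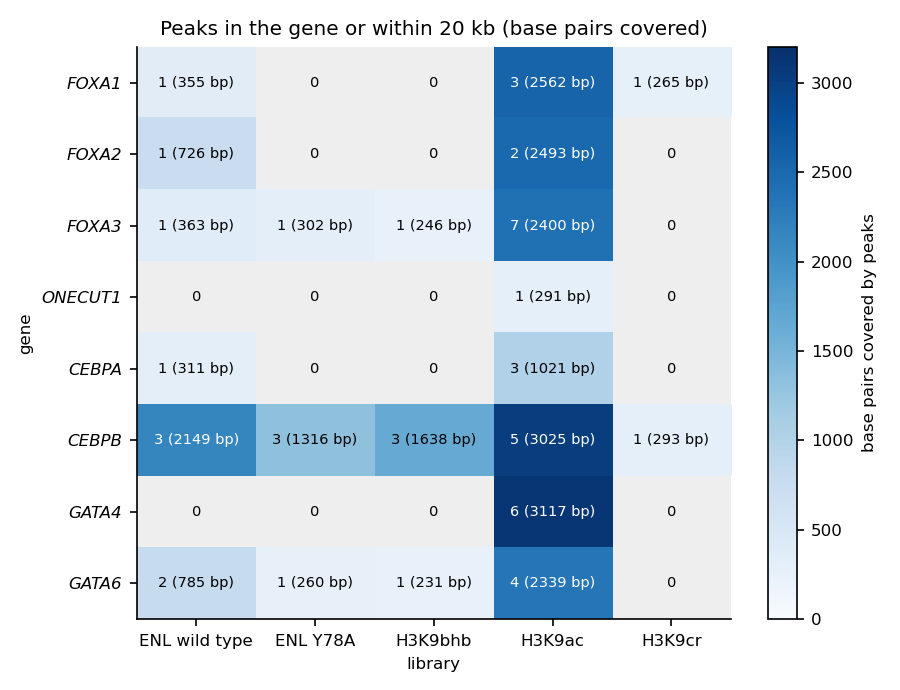
Number of peaks in each gene or within 20 kb of it, with the base pairs they cover in brackets, by gene (rows) and library (columns), and colour showing the base pairs covered. CEBPB had peaks in all 5 lists, and ONECUT1 and GATA4 in the H3K9ac list only.

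Where peaks overlapped by at least 1 bp they were joined into sites, which gave 33 sites around the 8 genes. H3K9ac alone made up 23 of them, 9 held wild type ENL and 5 held Y78A, and 1 site, upstream of CEBPB, had a peak in all 5 lists. Of the 9 wild type ENL peaks, 8 were overlapped by H3K9ac (78.9% of all wild type peaks were), 5 by H3K9bhb (59.8%), 5 by Y78A (42.9%) and 1 by H3K9cr (19.1%). CEBPB gave 3 of the 9 wild type peaks, each overlapped by both H3K9bhb and Y78A, so the 9 are not independent. The 5 on H3K9bhb and the 5 with Y78A had 4 peaks in common. Every Y78A and every H3K9bhb peak around the members lay on another list's peak. The same share over all peaks of those lists is not given here, so this is not read as a trait of the members. Over the whole lists, the 5422 Y78A peaks overlapped 4892 wild type ENL peaks, and the 9176 H3K9bhb peaks overlapped 6811. Of the 31 H3K9ac peaks, 8 lay on another list's peak, each of them on wild type ENL. This is near the 28.6% of all H3K9ac peaks that wild type ENL overlapped.

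**Figure D3:**
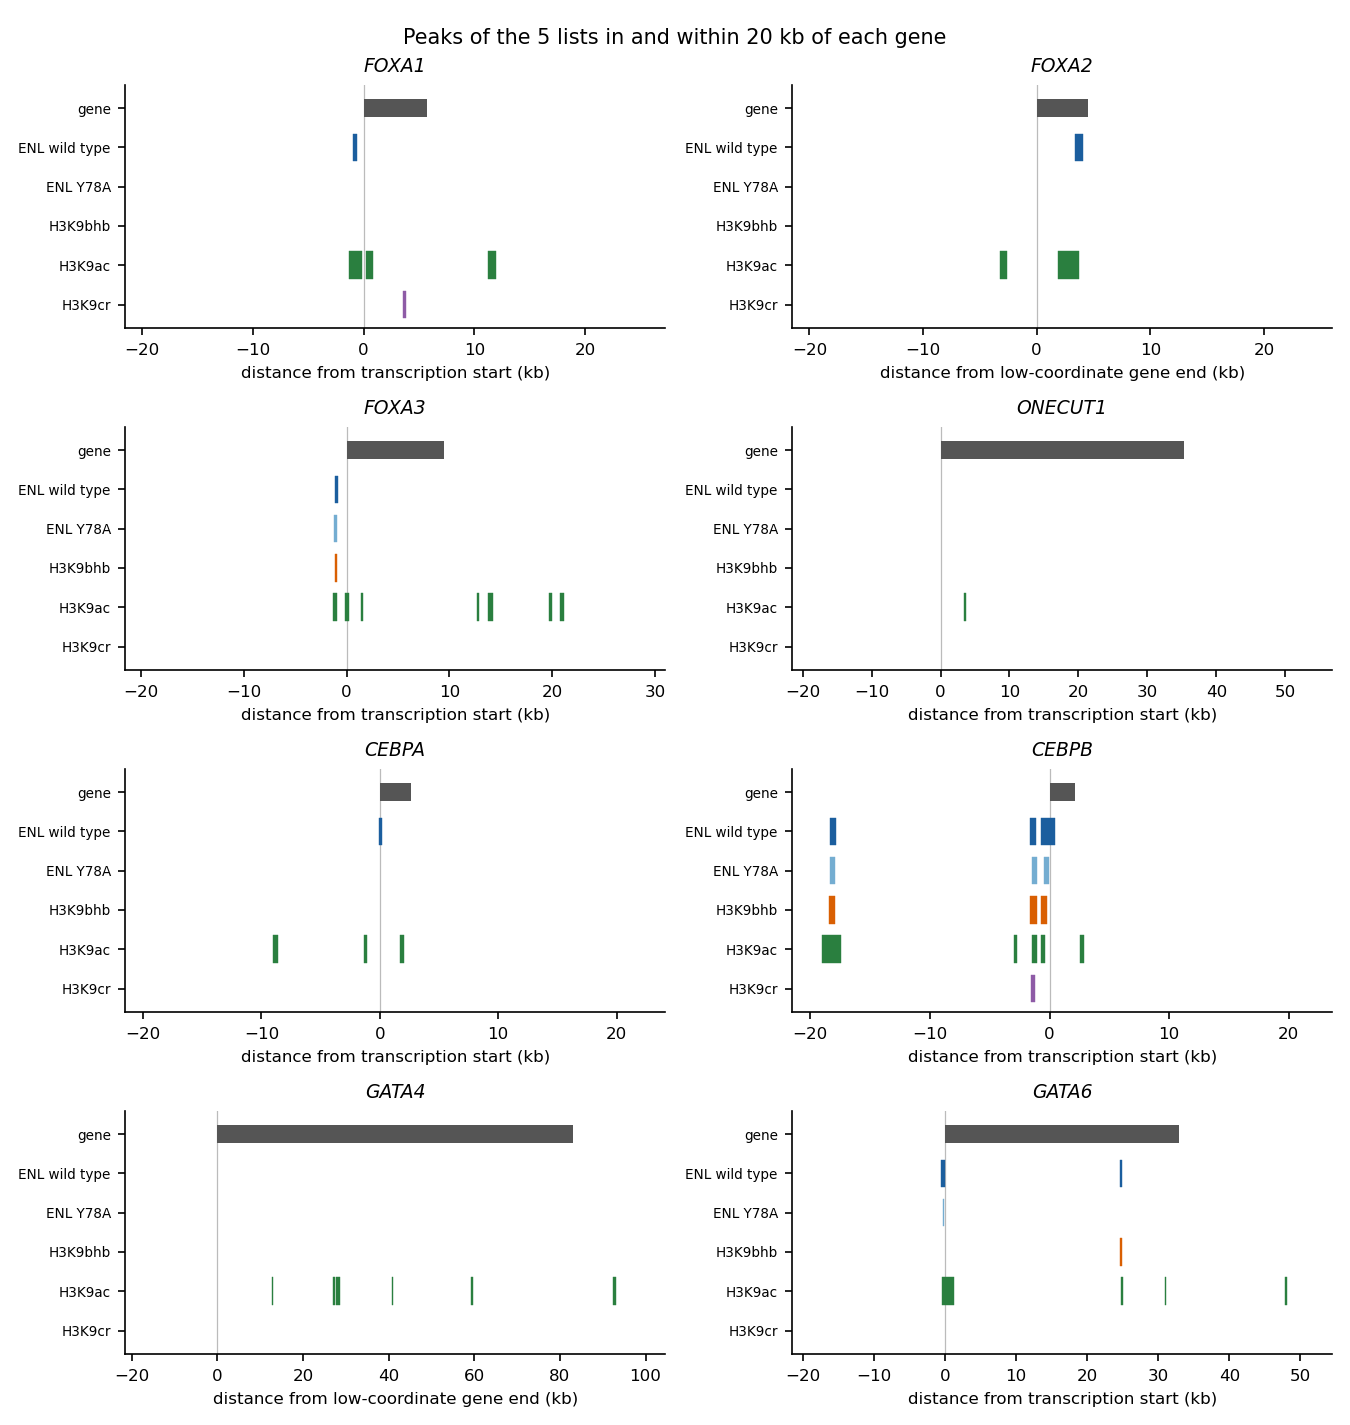
Maps of the 8 genes (grey bars) with the peaks of each list (coloured bars), with distance in kb on the horizontal axis from the transcription start, transcription running to the right, or for FOXA2 and GATA4 from the end with the lower coordinate. ENL peaks lie near gene ends in 6 of the maps, and GATA4 and ONECUT1 show H3K9ac bars alone.

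The bases just before the starts of 5 members are shown, because a peak of at least 1 list covers them and the lists differ in how much they cover. Each run is the 250 bases before the transcription start, 5′ to 3′ on the transcribed strand, from RefSeq on GRCh38.p14. A start was matched for 6 of the 8 members by symbol, and FOXA2 and GATA4 had no entry. In CEBPB (chr20:50190333-50190582, plus strand) capitals mark the 208 bases under the Y78A peak, the wild type ENL peak covers all 250, and the H3K9bhb peak covers 49. In GATA6 (chr18:22169339-22169588, plus strand) capitals mark the 155 bases under the Y78A peak, and the wild type ENL and H3K9ac peaks cover all 250. In CEBPA (chr19:33302535-33302784, minus strand) capitals mark the 112 bases under the wild type ENL peak, the only list that covers any. In FOXA1 (chr14:37595250-37595499, minus strand) and FOXA3 (chr19:45864076-45864325, plus strand) capitals mark the 144 and 193 bases under an H3K9ac peak, and no ENL peak reaches these bases.
CEBPB: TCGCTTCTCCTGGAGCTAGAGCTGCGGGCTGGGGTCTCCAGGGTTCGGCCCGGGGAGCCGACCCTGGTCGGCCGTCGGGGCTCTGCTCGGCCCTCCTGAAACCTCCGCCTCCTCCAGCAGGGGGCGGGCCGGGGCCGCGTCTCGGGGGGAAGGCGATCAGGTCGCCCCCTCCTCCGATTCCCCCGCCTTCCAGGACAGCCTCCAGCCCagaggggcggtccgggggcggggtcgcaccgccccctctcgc
GATA6: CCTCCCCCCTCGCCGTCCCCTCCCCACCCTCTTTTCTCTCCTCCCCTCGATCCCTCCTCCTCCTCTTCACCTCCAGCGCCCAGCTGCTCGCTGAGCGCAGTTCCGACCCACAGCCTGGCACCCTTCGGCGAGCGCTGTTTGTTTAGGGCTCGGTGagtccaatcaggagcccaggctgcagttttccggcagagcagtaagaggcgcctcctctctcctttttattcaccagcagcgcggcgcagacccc
CEBPA: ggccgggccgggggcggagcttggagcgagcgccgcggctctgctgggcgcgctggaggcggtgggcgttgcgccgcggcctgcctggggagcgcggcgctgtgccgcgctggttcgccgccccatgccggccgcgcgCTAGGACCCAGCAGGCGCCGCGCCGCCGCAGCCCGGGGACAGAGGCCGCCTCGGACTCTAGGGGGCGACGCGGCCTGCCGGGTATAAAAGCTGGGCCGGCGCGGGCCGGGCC
FOXA1: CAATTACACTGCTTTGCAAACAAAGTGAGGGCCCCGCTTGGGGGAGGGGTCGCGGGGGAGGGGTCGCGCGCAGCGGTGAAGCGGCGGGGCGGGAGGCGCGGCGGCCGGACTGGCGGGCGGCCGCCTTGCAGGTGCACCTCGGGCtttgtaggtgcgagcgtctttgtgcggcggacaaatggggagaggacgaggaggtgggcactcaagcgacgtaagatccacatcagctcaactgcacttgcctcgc
FOXA3: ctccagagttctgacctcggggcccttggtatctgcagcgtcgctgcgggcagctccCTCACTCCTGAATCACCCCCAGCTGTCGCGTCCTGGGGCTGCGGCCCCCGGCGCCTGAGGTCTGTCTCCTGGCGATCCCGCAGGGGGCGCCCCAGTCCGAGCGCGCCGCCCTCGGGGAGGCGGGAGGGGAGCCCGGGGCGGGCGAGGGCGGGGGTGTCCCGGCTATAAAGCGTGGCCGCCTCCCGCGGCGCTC

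The share of G and C in these runs went from 64.4% in GATA6 to 81.2% in CEBPA. The median was 62% over 22183 promoters of protein-coding genes (quartiles 52% and 70.4%). CEBPA, CEBPB (75.6%) and FOXA3 (75.2%) lay above the upper quartile, and GATA6 and FOXA1 (67.2%) lay within the quartiles. CEBPA held 41 CG dinucleotides, FOXA3 28, FOXA1 26, CEBPB 25 and GATA6 16, beside a median of 16. ONECUT1, with no peak over its start, was also above the upper quartile of G and C, at 76.8%, and held 37 CG dinucleotides. The letters TATAAA of the TATA box, searched on both strands, stood 30 to 25 bases before the start in both CEBPA and FOXA3, within the capitals of each. RefSeq gives CEBPB a second start, and TATAAA stood 29 to 24 bases before that one, under the wild type ENL peak and no other. TATAAA occurs in 9.01% of all such promoters.

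The letters GGGCGG, known as a site of SP and KLF factors, were found at every member start in the table except that of GATA6, and in 53.7% of all promoters. CCAAT, the NF-Y site, was found in GATA6, in ONECUT1 and before the second start of CEBPB, and in 32.7% of all promoters. TGTTTAC for forkhead factors, AGATAA for GATA factors and TTGCGCAA for CEBP factors, again on both strands, were in none of the 250-base windows of these 6 genes, and in 2.45%, 7.09% and 0.185% of all promoters. No matches of different motifs overlapped. A match is a description of the letters, and a missing match says only that these letters are not in that window.

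**Figure D4:**
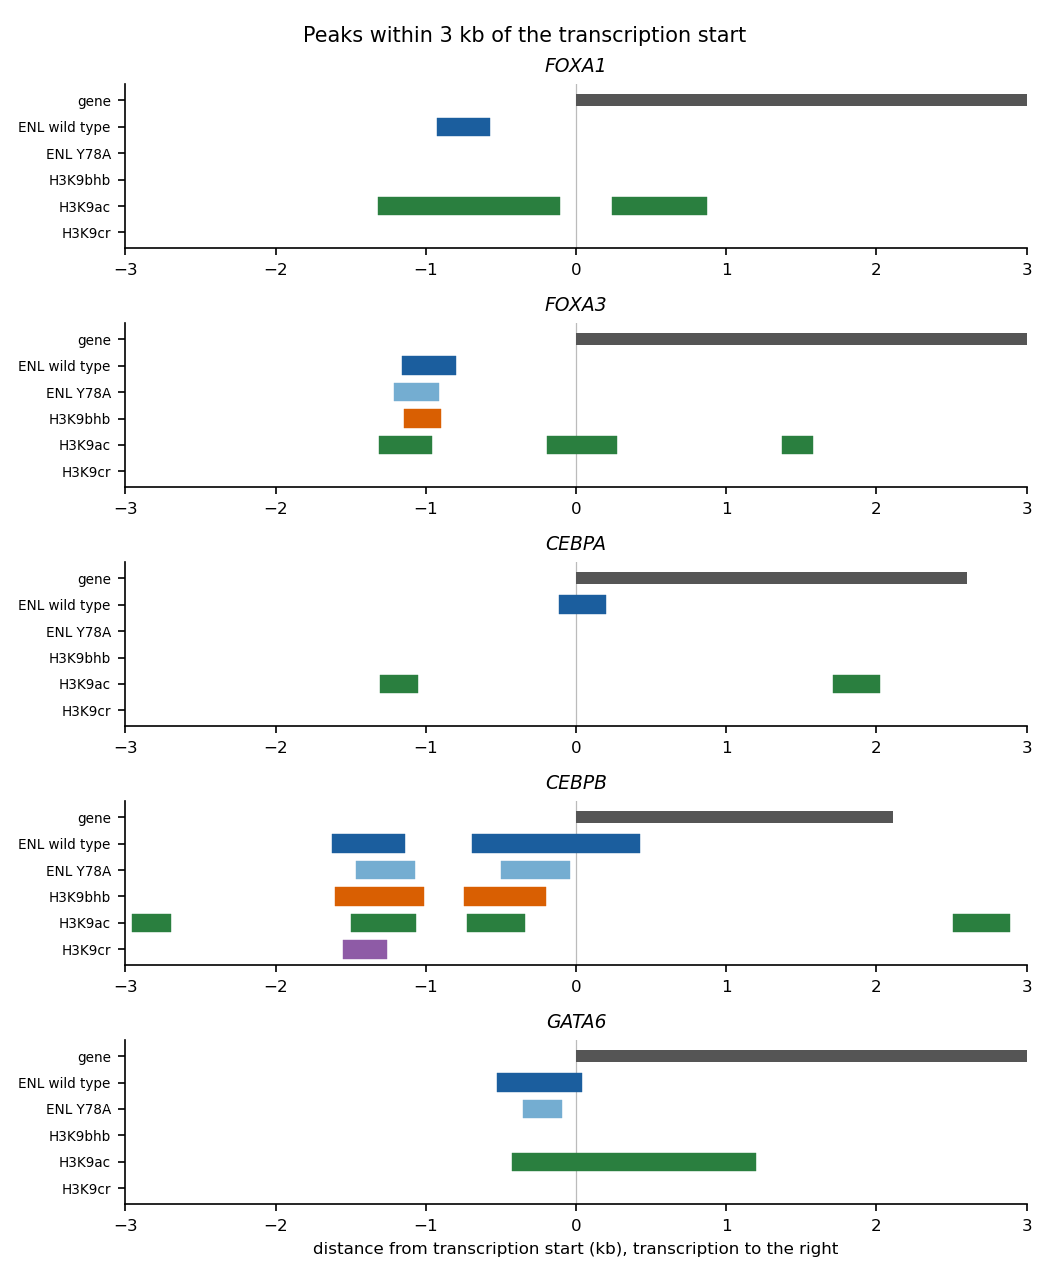
Peaks within 3 kb of the transcription start of 5 members, with distance from the start in kb on the horizontal axis and transcription to the right, grey bars for the gene and coloured bars for the peaks of each list. CEBPA has a wild type ENL bar over its start with the nearest H3K9ac bar 941 bp away, and CEBPB has 2 stacked sites before its start.

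FOXA1, the first of the forkhead pioneers, lies on chromosome 14 (37589552 to 37595249). Its wild type ENL peak (chr14:37595820-37596174) had 30 fragments at the summit (interval 20.2 to 42.8) and a 2.91-fold enrichment in the authors' list, with the summit 862 bp upstream of the start. An H3K9ac peak of 76 fragments and 2.73-fold (interval 59.9 to 95.1 fragments) covered that place, with its summit 879 bp upstream. The ENL peak lay within the neighbouring gene TTC6, which runs the other way from an end 380 bp beyond FOXA1, and its summit was nearer to that end, at 482 bp. Which of the pair the peak belongs to cannot be told apart. A second H3K9ac peak of 64 fragments had its summit 362 bp past the start, and a weaker one of 35 fragments lay past the other end of the gene. The only H3K9cr peak inside a member was in FOXA1, with 26 fragments, 2.50-fold and a −log10 q of 1.99, and it overlapped no other list. With a window of 500 bp FOXA1 had no ENL call. The nearest Y78A peak was 42.5 kb away from the gene and the nearest H3K9bhb peak 27.1 kb.

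FOXA2, the family member needed earliest in endoderm, lies on chromosome 20 (22580998 to 22585490). Wild type ENL had a peak of 726 bp within the gene (chr20:22584395-22585120), with 33 fragments (interval 22.7 to 46.3), 3.60-fold and a summit 884 bp from the gene's high-coordinate end. It overlapped the widest H3K9ac peak around the members, 1836 bp with 69 fragments and 3.03-fold. The summit of that H3K9ac peak lay 1088 bp from the same end. FOXA2 thus lost its H3K9ac call with a window of 500 bp, and with the summit required inside the 1 kb window. A second H3K9ac peak, of 61 fragments and 3.19-fold, lay 645 bp from the end of the noncoding gene LINC00261. Y78A and H3K9bhb had no peak nearer than 56.7 kb and 56.8 kb.

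FOXA3, the last of the family to switch on in the gut endoderm, lies on chromosome 19 (45864326 to 45873797) and had the highest Y78A fold among the members. Its gene-end site held 4 lists: wild type ENL with 27 fragments (interval 17.8 to 39.3) and 5.08-fold, Y78A with 24 (15.4 to 35.7) and 6.87-fold, H3K9bhb with 22 (13.8 to 33.3) and 4.72-fold, and H3K9ac with 50 (37.1 to 65.9) and 2.75-fold. Folds and fragment numbers of different lists rest on different depths and are not compared. The wild type ENL peak spans chr19:45863166-45863528. All 4 summits, 993 to 1096 bp upstream of FOXA3, lay 83 to 186 bp from the end of SYMPK, which encodes the polyadenylation scaffold symplekin, so this site is nearer to SYMPK than to FOXA3. With a window of 500 bp, FOXA3 kept H3K9ac alone, and with the summit required inside the 1 kb window it kept wild type ENL and H3K9ac and lost the Y78A and H3K9bhb calls.

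The start of FOXA3 itself carried H3K9ac alone, with 45 fragments, 2.34-fold and a summit 1 bp from the start. The gene had the most H3K9ac peaks of the 8, 7 in all, with 44 to 55 fragments and 2.02-fold to 2.75-fold. Of these, 2 lay at IRF2BP1, a neighbouring gene for a corepressor. MYPOP, another neighbour, had a gene-end peak in the same 4 lists as the FOXA3 site, but beyond the 20 kb window.

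GATA6 lies on chromosome 18 (22169589 to 22202528) and had 2 ENL sites with different partners. At the start, wild type ENL had 33 fragments (interval 22.7 to 46.3) and 3.28-fold (chr18:22169063-22169626), and Y78A had 21 (13.0 to 32.1) and 3.79-fold (chr18:22169234-22169493). H3K9ac had 41 fragments and 3.01-fold there, in a peak of 1622 bp that ran into the gene. H3K9bhb had no peak at the start. Within the gene, with summits between 24794 and 24838 bp past the start, wild type ENL had 13 fragments (6.92 to 22.2) and 5.34-fold (chr18:22194263-22194483), H3K9bhb had 15 (8.40 to 24.7) and 6.35-fold, and H3K9ac had 17 (9.90 to 27.2) and 4.33-fold. Y78A had no peak at this site, and its nearest was 24769 bp away. The start thus had Y78A without H3K9bhb and the inner site H3K9bhb without Y78A. Calls on 13 to 33 fragments leave wide intervals, and a missing call is not absence of signal. At the start, the wild type ENL summit lay 295 bp from the end of GATA6-AS1, a noncoding gene beside GATA6, and 326 bp from GATA6.

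GATA4, on chromosome 8 (11676935 to 11760002), had H3K9ac alone. It is the longest of the 8 genes, at 83068 bp, and 5 H3K9ac peaks lay inside it, with 13, 43, 50, 20 and 35 fragments from the low-coordinate end to the other. The last of these reached 4.80-fold, the highest H3K9ac fold around the members, 23525 bp from the gene's high-coordinate end. No list had a peak within 1 kb of either end of the RefSeq gene span. GATA4 had no matched transcription start, so whether a peak inside the gene lies at a start is not known here. A sixth H3K9ac peak, of 40 fragments and 4.17-fold, lay 217 bp from the end of NEIL2, which encodes a DNA repair glycosylase. The nearest wild type ENL peak was 42.2 kb from the gene, the nearest H3K9bhb peak 42.3 kb and the nearest Y78A peak 42.4 kb.

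ONECUT1, on chromosome 15 (52755053 to 52790336), had the fewest peaks. A single H3K9ac peak of 291 bp (chr15:52786636-52786926), with 33 fragments (interval 22.7 to 46.3) and 2.54-fold, lay 3509 bp past the start. The nearest wild type ENL and H3K9bhb peaks were 75.7 kb and 76.1 kb away, and the nearest Y78A peak 663.2 kb. Neither the gene's ends nor those of the noncoding genes around it had a peak in any list.

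CEBPA, on chromosome 19 (33299934 to 33302534), had its only ENL peak directly over the start (chr19:33302336-33302646). This wild type peak had 26 fragments (interval 17.0 to 38.1), 3.18-fold and a summit 43 bp past the start. It was the only one of the 9 wild type ENL peaks without an H3K9ac overlap, and the nearest H3K9ac peaks lay 941 bp and 1509 bp away. The first of those, of 49 fragments and 2.12-fold, stood 838 bp from an end of CEBPA-DT, a noncoding gene that begins 287 bp from CEBPA and also has the ENL peak within 1 kb of its end. The second, of 53 fragments and 1.95-fold, lay in the gene, 803 bp from its far end, and gave CEBPA its H3K9ac call. Counted within 1 kb of the transcription start alone, CEBPA had no H3K9ac. Y78A and H3K9bhb had no peak nearer than 122.6 kb.

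CEBPB, on chromosome 20 (50190583 to 50192690), had the most peaks shared between lists. Its 3 shared sites lay around 18 kb, around 1.3 kb and directly before the start. At the start, wild type ENL had a 1116 bp peak (chr20:50189891-50191006) with 52 fragments (interval 38.8 to 68.2) and 2.86-fold, Y78A a 457 bp peak with 29 (19.4 to 41.6) and 2.97-fold, H3K9bhb a 545 bp peak with 43 (31.1 to 57.9) and 3.28-fold, and H3K9ac a 386 bp peak with 72 (56.3 to 90.7) and 2.05-fold. The wild type peak was the only one to run past the start into the gene. The summits stood 207 bp (Y78A), 323 bp (wild type ENL), 379 bp (H3K9bhb) and 580 bp (H3K9ac) upstream.

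The middle site of CEBPB was the only place around the 8 genes with a peak in all 5 lists. Wild type ENL had 52 fragments and 3.08-fold (chr20:50188961-50189442), Y78A 36 and 3.90-fold, H3K9bhb 38 and 3.05-fold, H3K9ac 72 and 2.16-fold, and H3K9cr 37 and 2.81-fold. All 5 summits fell between 1219 and 1424 bp upstream, so the site lies outside the 1 kb window, and with a window of 2500 bp H3K9cr was called at CEBPB and at FOXA1. The site overlaps CEBPB-AS1, an antisense noncoding gene. The distal site held 31 fragments and 4.11-fold for wild type ENL (chr20:50172208-50172758), 21 and 4.68-fold for Y78A, 27 and 3.51-fold for H3K9bhb, and 76 and 3.19-fold for H3K9ac in a peak of 1565 bp. Its summits lay 50 to 165 bp from the end of LINC01273, a noncoding gene.

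A neighbouring gene end was nearer than the member's own for 21 of the 52 peaks and for 4 of the 9 wild type ENL peaks. For wild type ENL these neighbours were TTC6 at FOXA1, SYMPK at FOXA3, GATA6-AS1 at GATA6 and LINC01273 at CEBPB. Which gene such a peak belongs to cannot be told apart from these lists.

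The members' peaks were weak by fold and not by fragments. Of the 9 wild type ENL peaks, 7 had a fold below the list median of 4.997, with a range of 2.86 to 5.34, while 8 had more fragments than the list median of 23. For H3K9ac, 25 of 31 were below the median fold of 3.43, and 24 had more than the median of 33 fragments. The caller's local background, recovered from the same values, was above the list median for 8 of the 9 wild type ENL peaks and for 24 of the 31 H3K9ac peaks. Its median was 8.44 expected fragments at the members against 3.66 in the wild type list, and 18.7 against 8.49 in the H3K9ac list. Fold is the ratio of fragments to this background, so a low fold with many fragments goes with a high background by construction. The background counts are thus not a separate result, and the control behind the background is not known.

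The same held in the shorter lists, with 4 of 5 Y78A, 4 of 5 H3K9bhb and 2 of 2 H3K9cr peaks below the list's median fold and above its median background. Peaks on chromosomes 19 and 20, which carry 4 of the 8 genes, had median backgrounds of 4.88 and 5.22 in the wild type list and 11.2 and 10.8 in the H3K9ac list. On chromosomes 8, 14, 15 and 18, which carry the other members, the wild type medians were 2.58 to 3.24, below that of the whole list, while the wild type peaks of FOXA1 and of the GATA6 start had 9.65 and 9.36. The part of the chromosome in this was not tested. The exceptions to the high background were the inner site of GATA6, with 1.62 expected fragments in wild type ENL and 1.52 in H3K9bhb, the Y78A peak of FOXA3 with 2.64, and 7 H3K9ac peaks at GATA4, GATA6 and CEBPA with 2.37 to 6.68. By −log10 p the wild type ENL peaks ranked between percentile 11.6 and 62.0 of their list.

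**Figure D5:**
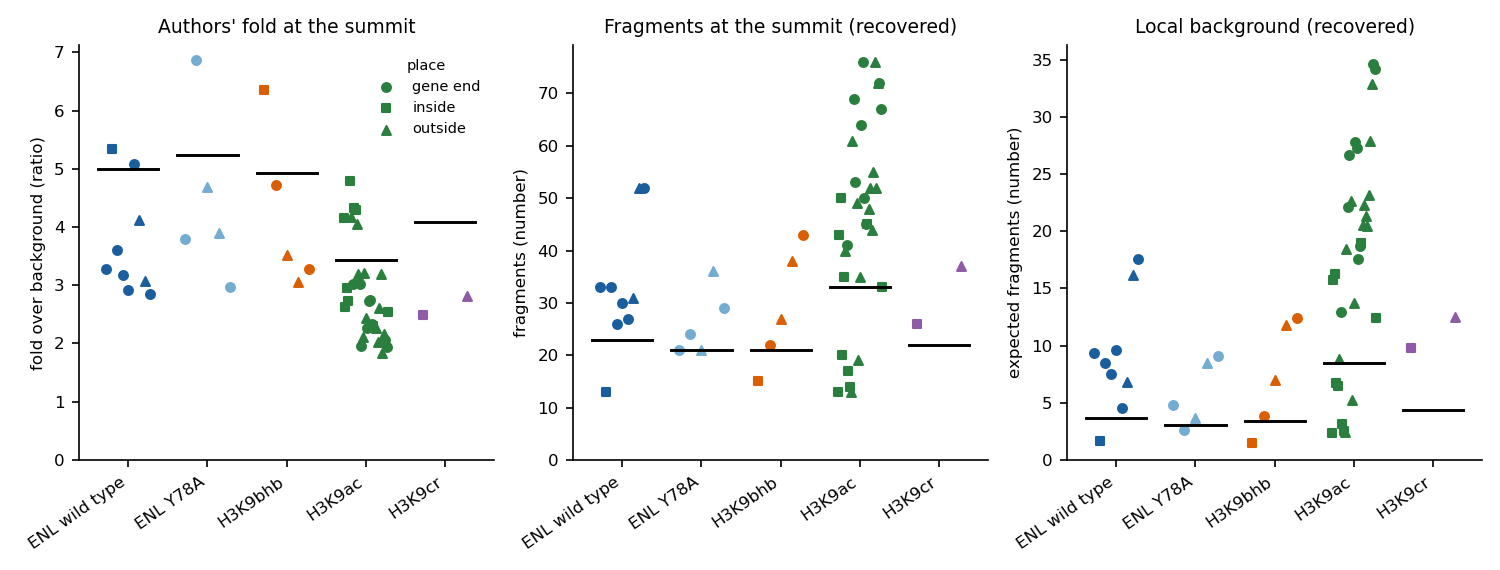
Authors' fold (left), fragments at the summit (middle) and local background in expected fragments (right) of the 52 peaks around the members, by library, with circles for gene ends, squares for peaks inside genes and triangles for peaks outside, and a black line at the median of the whole list. Most points lie under the line for fold and above it for background.

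Related genes of the same families had fewer ENL peaks at gene ends. Of 9 (CEBPD, CEBPE, CEBPG, ONECUT2, ONECUT3, GATA1, GATA2, GATA3 and GATA5), wild type ENL was at a gene end of 1, against 28.6% of all genes. That gene, CEBPG, had 16 fragments and 3.82-fold. Y78A, H3K9bhb and H3K9cr were at 0, against 14.6%, 23.8% and 4.49%. H3K9ac was at 3, against 56.4%. These were CEBPD (3.25-fold), CEBPG (3.92-fold) and ONECUT2 (3.39-fold), where folds are of the highest gene-end peak. Within 20 kb, wild type ENL was found at 4 of the 9 (49.7% of all genes), Y78A at 1 (28.8%) and H3K9bhb at 2 (44.5%). H3K9ac was found there at 8 (75.6%) and H3K9cr at 2 (15.1%). None of the 4 GATA relatives, among them the blood factors GATA1 and GATA2, had a gene-end peak in any list, and CEBPE, a factor of granulocytes, had no peak within 20 kb. GATA1 had 1 peak of every list within 20 kb, none of them at its ends. The difference between these genes and the 8 members was not tested.

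Among 20 other liver factor genes, wild type ENL was at a gene end of 11 (28.6% of all genes), Y78A at 7 (14.6%), H3K9bhb at 7 (23.8%), H3K9ac at 11 (56.4%) and H3K9cr at 0 (4.49%). The H3K9ac share was close to the background. The 11 with wild type ENL were NR0B2, NR1I3, NR1H3, HHEX, TBX3, XBP1, CREB3L3, ATF5, ESRRA, TCF7L2 and ZFPM1. NR0B2, the bile acid responsive repressor SHP, had the most fragments, 119 at 4.50-fold, then XBP1, a factor of the unfolded protein response, with 77 at 4.99-fold. HHEX, a homeobox gene of the liver bud, had 24 at 3.72-fold, with H3K9bhb and no Y78A. TCF7L2 had Y78A and no H3K9bhb, as GATA6 had at its start. NR1I3, CREB3L3 and ZFPM1 had wild type ENL and no H3K9ac at a gene end. Their H3K9ac peaks within 20 kb numbered 1, 3 and 5. Genome-wide, H3K9ac was missing from the ends of few such genes, since 5621 of the 5734 had it. This difference was not tested. RXRA, NR5A2, KLF15, NR2F2 and PPARA had H3K9ac and no peak of either ENL form within 20 kb. Of all 20037 genes, 15143 had H3K9ac and 9949 had wild type ENL within 20 kb, so H3K9ac without wild type ENL is common there. PPARA, the fatty acid receptor, had 7 H3K9ac peaks there, 1 of them at a gene end, with 1 H3K9bhb and 2 H3K9cr peaks.

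Genes with the most similar coverage were sought over the 5 libraries, by the Euclidean distance of log2(1 + base pairs under peaks in the gene and 20 kb on each side), leaving out genes within 100 kb of a member. The nearest gene was DEPDC7 for FOXA1 (distance 0.09), STK11 for FOXA2 (0.06), CDKL3 for FOXA3 (0.15), POP5 for CEBPA (0.03), ASMTL for CEBPB (0.31), DHRS11 for GATA4 (0.0037) and STAG2 for GATA6 (0.16). For ONECUT1, 3 genes with 291 bp of H3K9ac and nothing else tied at 0: OR5AU1, C22orf42 and LOC105373071. CEBPB had the most distant neighbour: ASMTL had 2239 bp of wild type ENL, 1564 of Y78A, 1454 of H3K9bhb, 3096 of H3K9ac and 296 of H3K9cr, beside 2149, 1316, 1638, 3025 and 293 bp for CEBPB.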

How the data were processed

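Each library had 1 deposited peak list, in MACS2 narrowPeak layout. FastQC, Bowtie2, MACS2, deepTools and hg38 are named without settings, per the submitters' processing notes. The sources used here do not give the control, duplicate removal or thresholds. The deposited score is the −log10 q times 10, cut to a whole number. The fold that the authors deposited is a ratio of summit signal to local background, and their deposited p and q are on the −log10 scale. The deposited interval positions and summit offsets are other values, in base pairs.

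Peaks on the 24 standard chromosomes were counted in windows around RefSeq genes with Python 3.11.15 and pandas 2.3.3. Summit fragments and background were the whole number and Poisson mean that give the deposited fold, with 1 added to both, and the deposited −log10 p, within 3e-05 for at least 99.98% of peaks. Simulated data, made with the same formula, returned 100% of 683 fragment numbers. The simulated peaks had lower backgrounds and higher folds than many of the members' peaks, so they check the calculation and not these values. Fragment intervals are exact Poisson intervals. Folds were used only within a list.

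The members and lists were chosen with earlier results of these data known. All 8 members and the 9 related genes were named, other liver factors where wild type ENL was at a gene end, and the most alike gene of each member. TCF7L2 and the genes without ENL were singled out after their values were seen, as were the motifs and the bases shown in capitals. Exons and introns were not analysed here.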

Additional observations from a re-analysis of the deposited data

How the results depend on the processing

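Of 68 alternative counts, 48 stayed within 1.5 times the reported value or inside its interval and 20 did not. This rule is lenient, and some of the counts could not move. H3K9cr was at a gene end of 0 members, so settings that only remove calls also gave 0. Equal-length lists, cut at 3852 peaks, left the H3K9cr list whole. The overlap shares with Y78A and with H3K9bhb, each 5 of 9, had an interval of 26.7% to 81.1%, which treats the peaks as independent. A share of 33.3% thus counted as inside. Falls from 6 to 4 members with windows of 500 bp, for wild type ENL and for H3K9ac, also counted as unchanged. With equal-length lists, members with a gene-end peak numbered 0 for wild type ENL, 1 for Y78A, 1 for H3K9bhb and 0 for H3K9ac, and peaks within 20 kb numbered 0, 3, 1 and 0; this setting removes the weaker peaks of the longer lists. H3K9bhb was at 1 member with windows of 500 bp and at 1 with the summit in the window, and H3K9cr at 2 with windows of 2500 bp. Within 50 kb there were 17 wild type ENL, 9 Y78A, 11 H3K9bhb, 48 H3K9ac and 4 H3K9cr peaks. A −log10 q of at least 3 left 1 H3K9cr peak. Without CEBPB, chosen after seeing the data, 2 Y78A, 2 H3K9bhb and 1 H3K9cr peaks remained. Windows around transcription starts covered the 6 members with a start in the table. No paired analysis was possible because each group has 1 library. Peaks with 13 to 76 fragments limit the precision, and a place without a peak may hold signal under the threshold.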
